A study of Mus musculus with 6 samples.

Results

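The SOX genes measured here were 10 members of a family of transcription factors, Sox1, Sox3, Sox14, Sox21, Sox4, Sox11, Sox12, Sox6, Sox7 and Sox9, picked by gene symbol from the 24453 symbols counted in each library. All 10 symbols were in the count tables. Sorted interfollicular epidermis of newborn mice (postnatal day 0) was profiled by RNA sequencing in 6 libraries. 3 were labelled with the genotype Ring1a-/- Ring1b-/- and are called knockout-labelled here (K1, K2 and K3), and 3 were labelled Control (C1, C2 and C3). Ring1a and Ring1b are the ubiquitin ligases of Polycomb repressive complex 1 (PRC1), a chromatin complex that keeps developmental genes silent, and the title of the series names the role of that complex in skin epithelium. Cells of both groups were sorted as positive for EpCAM and Sca1 and high for α6-integrin, a gate for interfollicular progenitors. The sources used here do not give the strain, the driver or timing of the deletion, the alleles that the controls carried or any pooling of animals.

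SOX proteins share a DNA-binding HMG box that recognises a short ACAAT-like motif and bends the DNA, and each acts with partner factors that differ between cell types. The family is divided into groups by sequence. The SoxB1 genes Sox1 and Sox3 maintain neural progenitors, the SoxB2 genes Sox14 and Sox21 act in neurons and, for Sox21, in the hair shaft of the mouse, and the SoxC genes Sox4, Sox11 and Sox12 act in neuronal and mesenchymal progenitors. Sox6 (SoxD) acts with Sox9 (SoxE) in cartilage, Sox9 also marks the outer root sheath and stem cells of the hair follicle, and Sox7 (SoxF) acts in endothelium and early blood.

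Each library held between 18951665 and 31187270 counts. Levels are given in CPM, which divides each count by a library size adjusted with TMM factors. The limit that a count of 0 allows, 3 counts, came to between 0.0975 and 0.154 CPM and covers counting error only. The check of the targeted genes did not separate the groups: Ring1, the gene of Ring1a, had 1.66, 5.20 and 14.2 CPM in K1, K2 and K3, against 30.9, 17.1 and 3.90 CPM in C1, C2 and C3, so the order of K3 and C3 went against the labels. Rnf2, the gene of Ring1b, had 55.4, 64.1 and 59.0 CPM in K1, K2 and K3, against 43.2, 63.2 and 47.5 CPM in C1, C2 and C3, which checks nothing if reads fall outside a deleted part. The first principal component (55.8% of the variance) separated the groups as labelled, K3 and C3 included. K1 and C1 stood apart from the other 4 libraries on the second (18.5%), and the transcript Xist of the inactive X chromosome was high in K1, K2 and C3 and low in K3, C1 and C2. Ddx3y, a gene of the Y chromosome, had 0.0346, 0.206 and 76.2 CPM in K1, K2 and K3, against 91.2, 102 and 59.7 CPM in C1, C2 and C3, so C3 was high in both transcripts. No label says whether replicates were separate animals, and p-values then measure the spread between these libraries. The epidermal identity of the sort was clear in both groups, with summed levels of 12 interfollicular markers at 32900 to 36100 CPM in the knockout-labelled and 35000 to 50700 CPM in the control-labelled libraries. Of these 12, 2 were called lower, 0 higher and 10 did not pass, against 10.2% called and 2.98% called lower of all tested genes. Trp63, the master factor of stratified epithelium, had 1140, 939 and 969 CPM in K1, K2 and K3, against 1730, 1760 and 1790 CPM in C1, C2 and C3 (edgeR adjusted p = 0.0176), and Col17a1, a hemidesmosome collagen, fell by 0.74 on the log2 scale (edgeR adjusted p = 0.0278).

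The gene starts of 7 of the 10 SOX genes were in the RefSeq promoter table of GRCm38.p6, which gives 250 bases before and 50 bases after each start. Sox3, Sox7 and Sox9 had no entry. The sequences of 3 genes that rose and 3 that fell are shown because CpG-rich promoters are the usual sites of Polycomb binding in mammals. They are written 5′ to 3′ on the strand of the gene, with each CpG dinucleotide in capitals.
Sox1, chr8:12395269-12395568, plus strand: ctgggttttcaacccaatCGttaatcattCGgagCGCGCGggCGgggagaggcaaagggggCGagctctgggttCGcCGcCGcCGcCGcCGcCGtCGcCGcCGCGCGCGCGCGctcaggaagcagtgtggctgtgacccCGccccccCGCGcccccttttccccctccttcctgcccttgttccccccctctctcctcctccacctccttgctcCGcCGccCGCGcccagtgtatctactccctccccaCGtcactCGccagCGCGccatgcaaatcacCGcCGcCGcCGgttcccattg
Sox14, chr9:99876121-99876420, minus strand: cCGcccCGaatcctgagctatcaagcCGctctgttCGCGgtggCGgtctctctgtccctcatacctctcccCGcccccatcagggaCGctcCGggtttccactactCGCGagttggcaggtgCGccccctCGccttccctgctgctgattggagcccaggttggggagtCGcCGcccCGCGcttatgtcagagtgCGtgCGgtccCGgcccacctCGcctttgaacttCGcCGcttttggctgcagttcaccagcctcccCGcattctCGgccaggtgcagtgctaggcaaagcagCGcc
Sox11, chr12:27342669-27342968, minus strand: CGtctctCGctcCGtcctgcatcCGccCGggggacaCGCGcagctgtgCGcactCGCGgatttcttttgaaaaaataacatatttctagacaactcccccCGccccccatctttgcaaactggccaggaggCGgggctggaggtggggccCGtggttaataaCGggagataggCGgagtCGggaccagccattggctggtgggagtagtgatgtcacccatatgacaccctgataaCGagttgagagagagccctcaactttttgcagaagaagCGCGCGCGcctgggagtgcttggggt
Sox21, chr14:118236981-118237280, minus strand: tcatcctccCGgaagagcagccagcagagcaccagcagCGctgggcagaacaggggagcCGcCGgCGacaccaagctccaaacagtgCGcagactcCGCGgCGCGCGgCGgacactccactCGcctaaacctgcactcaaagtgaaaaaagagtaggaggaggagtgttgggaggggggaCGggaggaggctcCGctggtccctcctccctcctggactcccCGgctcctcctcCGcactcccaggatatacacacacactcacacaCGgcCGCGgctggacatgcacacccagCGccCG
Sox12, chr2:152397997-152398296, minus strand: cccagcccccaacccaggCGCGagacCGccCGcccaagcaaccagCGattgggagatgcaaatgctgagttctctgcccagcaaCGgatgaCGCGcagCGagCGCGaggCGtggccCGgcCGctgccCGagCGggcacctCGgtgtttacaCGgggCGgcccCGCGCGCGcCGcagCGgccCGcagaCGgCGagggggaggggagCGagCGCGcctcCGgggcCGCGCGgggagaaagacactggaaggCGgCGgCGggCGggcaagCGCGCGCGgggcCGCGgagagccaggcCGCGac
Sox6, chr7:116038695-116038994, minus strand: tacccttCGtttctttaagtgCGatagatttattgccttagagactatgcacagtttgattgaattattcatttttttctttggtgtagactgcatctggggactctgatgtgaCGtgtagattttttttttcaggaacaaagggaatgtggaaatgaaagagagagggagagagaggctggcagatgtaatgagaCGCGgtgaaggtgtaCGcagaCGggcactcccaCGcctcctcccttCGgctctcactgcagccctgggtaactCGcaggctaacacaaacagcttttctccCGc

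All 7 of these promoters had more CpG dinucleotides than the median of 7 over the 32851 promoters of the table (lower quartile 3, upper quartile 20). The genes that rose had 37 (Sox1), 26 (Sox14) and 21 (Sox11). The genes that fell had 47 (Sox12), 22 (Sox21) and 11 (Sox6, at the first of its 6 listed starts), and Sox4 had 12. The range of CpG counts in the promoters that fell thus enclosed that of the promoters that rose. As many CpG dinucleotides as in the Sox12 promoter were found in 1.44% of all promoters, as many as in Sox1 in 5.58%, and as many as in Sox6 in 41.4%. The letters ACAAT, searched on both strands (ACAAT or ATTGT), had 0 matches in the 7 windows, and 31% of all promoters held at least 1.

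**Figure D1:**
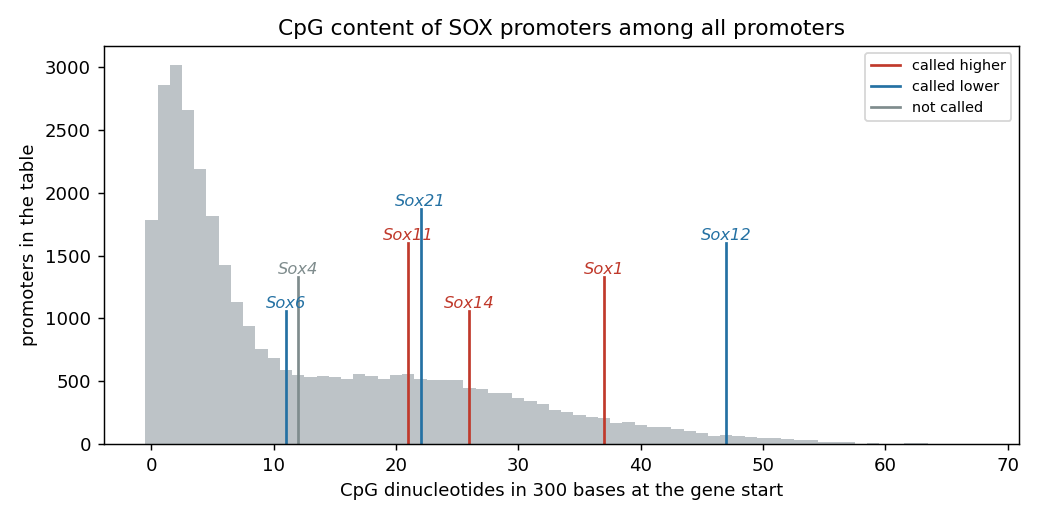
Number of promoters (vertical axis) by the count of CpG dinucleotides in 300 bases at the gene start (horizontal axis) over 32851 RefSeq promoters, with the 7 SOX promoters drawn as vertical lines of arbitrary height and coloured by the call of the gene. The genes called higher (21 to 37 CpG) lie inside the range of those called lower (11 to 47 CpG).

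The SOX genes of knockout-labelled epidermis changed in opposite directions by gene. Of 9 tested members, Sox1, Sox14, Sox11 and Sox7 rose, Sox21, Sox12 and Sox6 fell, and Sox4 and Sox9 did not pass. Genes were called at an adjusted p under 0.05 in edgeR's quasi-likelihood test over 14890 genes, of which 10.2% were called, 7.17% higher and 2.98% lower. Of the 1512 called genes 70.6% were higher, against 45.9% of 1933 with an offset for GC content and gene length. In the same 7 members the 2 groups of libraries did not overlap, 4 higher and 3 lower, against 32.4% of all tested genes. The 9 tested members had a median log2 fold change of 0.50, against 0.00 over all tested genes. That value is Sox9's, the median without Sox1 and Sox14 is Sox4's -0.53, and nothing is read from either. Sox3 had too few counts to be tested. Without K3 and C3, whose Ring1 levels went against their labels, the 4 genes that rose were still called, with edgeR adjusted p-values of 0.00916 to 0.0229 and log2 fold changes of 5.06 for Sox11 and 2.62 for Sox7. None of the 3 that fell was called without them, at -1.27 (Sox21), -1.69 (Sox12) and -1.61 (Sox6) and edgeR adjusted p-values of 0.0617 to 0.156. In the libraries that remain, Xist was high and Ddx3y near 0 in K1 and K2, and the reverse held in C1 and C2. Differences by label and by these sex chromosome transcripts cannot be told apart there. In such bulk samples, fewer cells of a type and less RNA per cell cannot be told apart. Members silent in the controls met the count filter only through the knockout-labelled libraries: of 7240 symbols with at most 3 counts over the control-labelled libraries, 117 were tested and all 117 were called higher. Nothing is read from the share of members called for that reason.

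**Figure D2:**
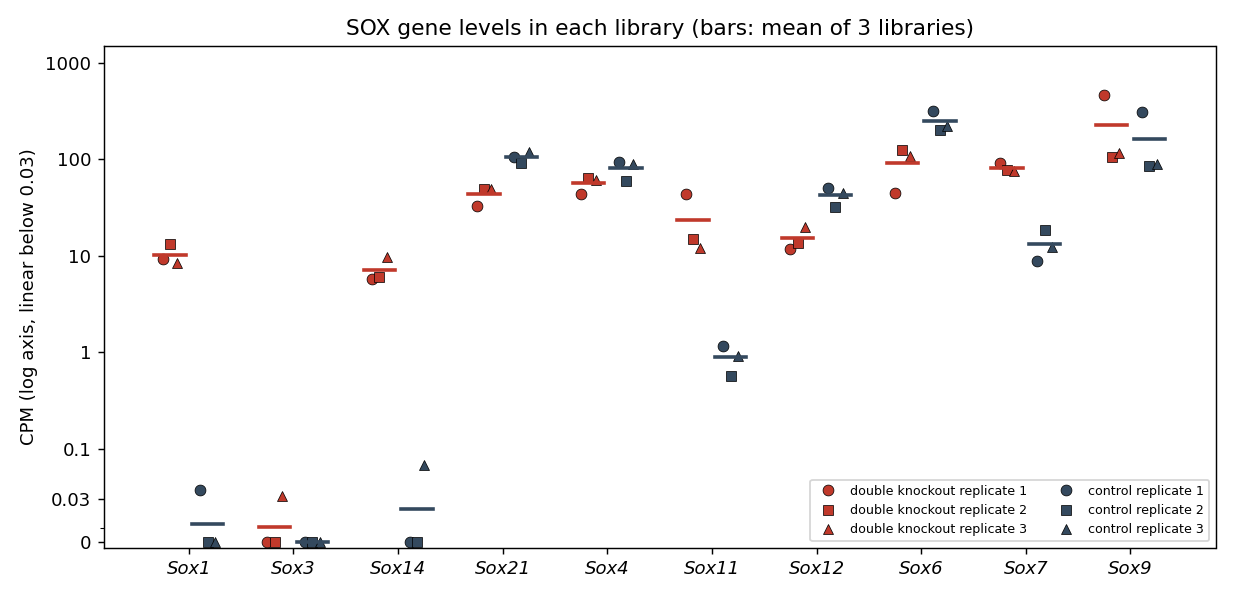
CPM of the 10 SOX genes (horizontal axis) in each library (points, with a symbol for each replicate number), knockout-labelled in red on the left and control-labelled in dark blue on the right of each gene, with bars at the means of 3 libraries; the vertical axis is logarithmic and linear below 0.03. Sox1, Sox14, Sox11 and Sox7 lie higher and Sox21, Sox12 and Sox6 lower in every knockout-labelled library than in any control-labelled one.

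Sox1 (chromosome 8, 12395295 to 12400126, plus strand, GRCm38), a single-exon SoxB1 gene expressed from the neural plate onward, rose to a counted level in libraries whose controls had almost none. It had 268, 259 and 256 counts in K1, K2 and K3, against 1, 0 and 0 counts in C1, C2 and C3. These are 9.28, 13.3 and 8.32 CPM in K1, K2 and K3, against 0.0375, 0 and 0 CPM in C1, C2 and C3. The knockout-labelled libraries lay close together and far above the controls. The ratio of summed counts, scaled for depth, was 780 with a 95% interval of 140 to 30800 for counting error (edgeR adjusted p = 5.15e-04). The annotated transcript Sox1ot overlaps Sox1 on the same strand and was not a row of the tables, so its reads cannot be told apart from those of Sox1.

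Sox3, also a SoxB1 gene (chromosome X, 60891366 to 60893430, minus strand), remained without signal. It had 0, 0 and 1 counts in K1, K2 and K3, and 0 counts in each of C1, C2 and C3. The 1 count is under the limit of 3 that a count of 0 allows, so no difference was detectable at this depth. Of these SoxB1 genes, Sox1 was thus counted in every knockout-labelled library and Sox3 was at the floor.

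Sox14 (chromosome 9, 99874106 to 99876170, minus strand), a SoxB2 repressor of interneurons in brain and spinal cord, also rose over controls near 0. It had 167, 116 and 298 counts (5.78, 5.97 and 9.68 CPM) in K1, K2 and K3, against 0, 0 and 2 counts (0, 0 and 0.0684 CPM) in C1, C2 and C3. The ratio was 289, with a 95% counting interval of 79.7 to 2390 (edgeR adjusted p = 0.00143). K3, the library whose Ring1 level went against its label, had the highest Sox14.

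Sox21 (chromosome 14, 118233232 to 118237030, minus strand), the SoxB2 partner of Sox14, fell where Sox14 rose. Its levels were 33.0, 49.0 and 48.9 CPM in K1, K2 and K3, against 106, 91.1 and 119 CPM in C1, C2 and C3. The groups were well apart, with means of 43.6 ± 9.23 CPM in the knockout-labelled and 105 ± 14.0 CPM in the control-labelled libraries (SD, n = 3 each). Sox21 changed by -1.27 ± 0.22 on the log2 scale (SE; edgeR adjusted p = 0.00828), a level 41.4% of control. The call ended with replicates 1 and 2 alone (edgeR adjusted p = 0.0932). A long noncoding gene on the opposite strand, Gm4675, overlaps the start of Sox21, and whether counting used strand is not stated, so reads of the pair cannot be told apart.

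The SoxC genes were called in different directions. Sox11 (chromosome 12, 27334264 to 27342574, minus strand), which drives neuronal maturation and is shared with other embryonic progenitors, rose. It stood at 44.2, 14.8 and 12.1 CPM in K1, K2 and K3, against 1.16, 0.568 and 0.924 CPM in C1, C2 and C3. Every knockout-labelled library was above every control-labelled one, and within the knockout-labelled group K1 stood far above K2 and K3. Its log2 fold change was 4.73 ± 0.60 (SE; edgeR adjusted p = 0.00231). It was 3.92 without K1 (edgeR adjusted p = 0.00286) and 4.15 with replicates 2 and 3 alone (edgeR adjusted p = 6.89e-04), so the call did not rest on K1 or C1.

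Sox12 (chromosome 2, 152393611 to 152398063, minus strand), a SoxC gene that activates targets more weakly than its relatives, fell. It had 11.9, 13.7 and 20.1 CPM in K1, K2 and K3, against 49.9, 32.4 and 44.7 CPM in C1, C2 and C3. The log2 fold change was -1.47 ± 0.27 (SE; edgeR adjusted p = 0.0119), a level 36% of control. The call was lost without K2 (edgeR adjusted p = 0.0564) and with replicates 1 and 2 alone (edgeR adjusted p = 0.0617), at log2 fold changes of -1.40 and -1.69.

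Sox4 (chromosome 13, 28948919 to 28953713, minus strand), the third SoxC gene and the one broadly expressed in progenitors, had 43.6, 64.8 and 61.3 CPM in K1, K2 and K3, against 94.6, 60.1 and 90.5 CPM in C1, C2 and C3. The groups overlapped at C2. The difference, -0.53 ± 0.24 on the log2 scale (SE), did not pass (edgeR adjusted p = 0.220), and its 95% interval of -1.08 to 0.02 included 0. The 3 SoxC genes therefore gave 1 call higher, 1 call lower and 1 without a call, and differences between their fold changes were not tested. A long noncoding gene on the opposite strand, Gm26735, overlaps Sox4. With the use of strand not stated, reads of that pair cannot be told apart.

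Sox6 (chromosome 7, 115470872 to 116038796, minus strand), a SoxD factor of cartilage, muscle and erythroid cells, fell. Its levels were 44.7, 126 and 108 CPM in K1, K2 and K3, against 316, 201 and 222 CPM in C1, C2 and C3. The groups did not overlap, and the replicate 1 libraries were the extremes, K1 the lowest and C1 the highest. The log2 fold change was -1.41 ± 0.36 (SE; edgeR adjusted p = 0.0423), a level 37.6% of control. This was the least secure of the 7 calls: it was lost under 9 of 18 other settings, among them leaving out C1, C2, C3, K2 or K3 (edgeR adjusted p = 0.0547 to 0.122), scaling by library size alone (edgeR adjusted p = 0.0548) and Xist as a covariate (edgeR adjusted p = 0.121). The log2 fold changes under these settings were -1.69 to -1.20. With replicates 2 and 3 alone, which leaves out K1 and C1, it was called at a log2 fold change of -0.86 (edgeR adjusted p = 0.00308). The antisense genes Gm45025 and Sox6os lie within the span of Sox6. Whether their reads add to its counts was not tested.

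Sox7 (chromosome 14, 63943673 to 63950732, plus strand), the SoxF factor of endothelium, rose over a low but counted level in the controls. It stood at 91.5, 77.4 and 76.3 CPM in K1, K2 and K3, against 8.93, 18.4 and 12.3 CPM in C1, C2 and C3. The knockout-labelled libraries were tightly grouped (81.7 ± 8.49 CPM, SD), and the lowest of them was over the highest control-labelled library. On the log2 scale the change was 2.63 ± 0.29 (SE; edgeR adjusted p = 0.00126), a 6.18-fold higher level. Of 15 endothelial markers 1 was called higher, 0 lower and 14 did not pass, against 10.2% called and 7.17% called higher of all tested genes. Their summed level was 50.3, 25.7 and 89.1 CPM in K1, K2 and K3, against 41.2, 14.5 and 94.7 CPM in C1, C2 and C3. The marker that rose was Flt1, a VEGF receptor, at 25.5, 9.37 and 7.57 CPM in K1, K2 and K3, against 2.03, 0.656 and 3.73 CPM in C1, C2 and C3 (edgeR adjusted p = 0.0400). The part of endothelial cells in the Sox7 level was not tested.

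Sox9 (chromosome 11, 112782224 to 112787760, plus strand), the SoxE factor of follicle stem cells and cartilage, varied more within groups than between them. It had 460, 105 and 117 CPM in K1, K2 and K3, against 307, 85.9 and 89.0 CPM in C1, C2 and C3. The replicate 1 library was the highest in both groups, the same libraries that stood apart on the second principal component. The log2 fold change was 0.50 ± 0.66 (SE; edgeR adjusted p = 0.711), with a 95% interval of -1.01 to 2.01, which spans changes of either sign. It was -0.54 without K1, 1.38 without C1 and 0.34 with replicates 2 and 3 alone (edgeR adjusted p = 0.605, 0.268 and 0.0967).

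**Figure D3:**
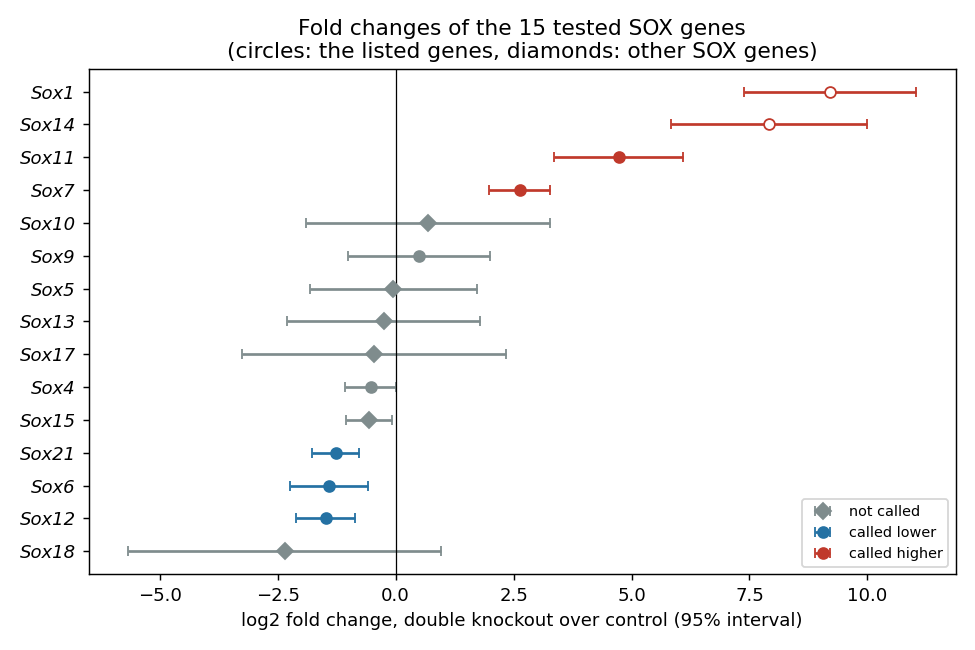
Log2 fold change (horizontal axis, double knockout over control) with its 95% interval for the 15 tested SOX genes (vertical axis), with circles for the listed genes and diamonds for other SOX genes, red and blue for called higher and lower, grey for not called, and open circles for genes with at most 3 control counts, whose fitted value depends on the prior count. The intervals of the 4 higher and 3 lower genes lie on opposite sides of 0.

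Compared per kilobase of annotated exon, the SOX genes stood in different orders in the 2 groups, with Sox9 first in both. In the knockout-labelled libraries Sox9 led with 54.9 ± 48.8 CPM per kb (SD, n = 3), and Sox7 followed with 24.8 ± 2.57, whose range overlapped that of Sox9. Sox4 (11.8 ± 2.37) and Sox21 (11.5 ± 2.43 CPM per kb) came next and did not differ beyond their spread. Sox6, Sox14, Sox12, Sox11 and Sox1 followed between 6.25 and 2.13 CPM per kb, each overlapping the next, and Sox3 was last. In the control-labelled libraries Sox9 (38.9 ± 30.7) and Sox21 (27.7 ± 3.69 CPM per kb) led and overlapped. Sox4 (17.0 ± 3.93) and Sox6 (16.6 ± 4.11 CPM per kb) overlapped each other, and Sox12 (9.5 ± 2.02), Sox7 (4.01 ± 1.46) and Sox11 (0.106 ± 0.036 CPM per kb) each stood apart from the next. Sox14, Sox1 and Sox3 were at or near 0. The per-length levels of Sox14 (3.46), Sox11 (2.85) and Sox1 (2.13 CPM per kb) in knockout-labelled libraries lay beside that of Sox12 (3.42 CPM per kb). The exon length of Sox6 is the union of many transcripts and makes its per-length level a low estimate.

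**Figure D4:**
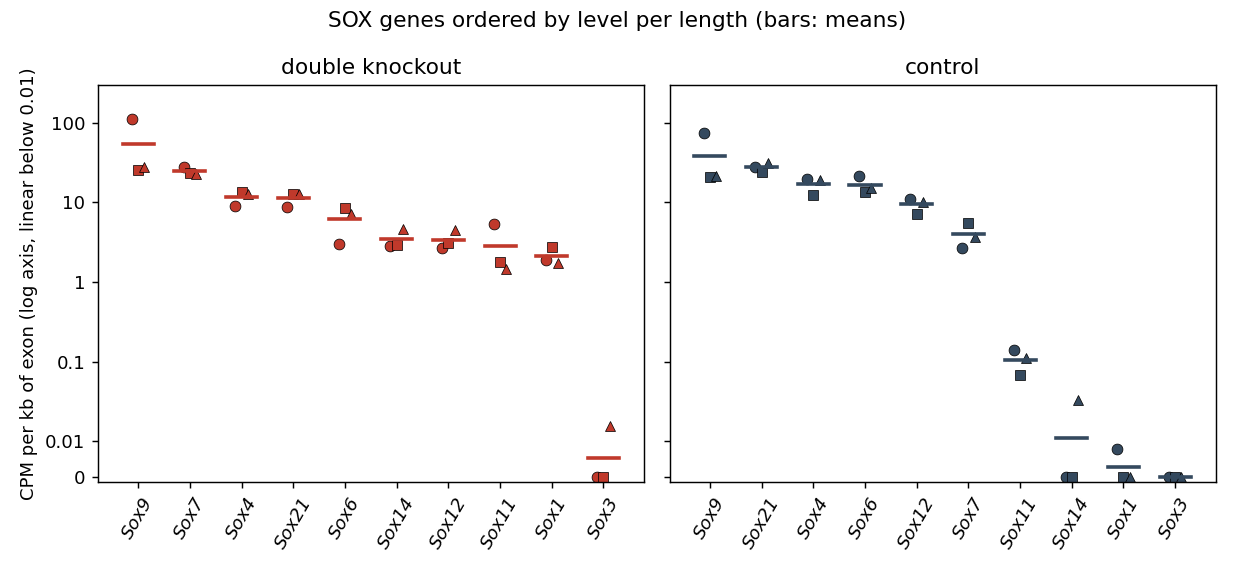
CPM per kb of annotated exon (vertical axis, logarithmic and linear below 0.01) of the 10 SOX genes ordered by mean (horizontal axis), in the knockout-labelled libraries on the left and the control-labelled on the right, with points for libraries and bars for means. Sox7 is second in the knockout-labelled and sixth in the control-labelled order.

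Other SOX genes of a list that does not hold the whole family were mostly low. Of 9 listed (Sox5, Sox8, Sox10, Sox13, Sox15, Sox17, Sox18, Sox30 and Sry), 6 were tested, 0 were called, and their median log2 fold change was -0.35; DESeq2 and limma-voom also called 0, and 1, Sox15, had an unadjusted p under 0.05 in edgeR. Sox15, the keratinocyte and muscle progenitor gene of this group, had 31.5, 27.0 and 28.6 CPM in K1, K2 and K3, against 53.5, 37.2 and 38.6 CPM in C1, C2 and C3, with no overlap (log2 fold change -0.57 ± 0.21, SE; edgeR adjusted p = 0.140). Sox8, a SoxE gene like Sox9, was not tested but had 9, 6 and 14 counts in K1, K2 and K3, against 0 counts in C1, C2 and C3. With 3 counts taken as the limit for the whole control group, Sox8 was at least 9.63-fold higher. The SoxF relatives of Sox7 were low. Sox17 had 0, 0.463 and 1.27 CPM in K1, K2 and K3, against 1.01, 0.306 and 1.06 CPM in C1, C2 and C3. Sox18 had 0, 0 and 0.650 CPM in K1, K2 and K3, against 1.46, 0.262 and 1.78 CPM in C1, C2 and C3. Sox5, the SoxD relative of Sox6, had 11.6, 8.60 and 7.51 CPM in K1, K2 and K3, against 22.5, 1.66 and 4.48 CPM in C1, C2 and C3, a log2 fold change of -0.05 that rested on C1. Sox10, the gene of neural crest, glia and melanocytes, had 5.33, 0.206 and 0.585 CPM in K1, K2 and K3, against 0.900, 2.45 and 0.479 CPM in C1, C2 and C3. Sox13 had 5.85, 2.01 and 2.99 CPM in K1, K2 and K3, against 10.7, 1.09 and 1.09 CPM in C1, C2 and C3. Sox30 and Sry, with 5 and 0 summed counts in the knockout-labelled and 8 and 1 in the control-labelled libraries, were not tested.

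Genes that accompany SOX factors in neural cells also rose in part. Of 10 listed neural progenitor genes 4 were tested and all 4 rose. The other 6 had too few counts. The share called over all tested genes was 10.2%, with 7.17% higher. A gene that met the count filter only through the knockout-labelled libraries was tested because of its level there. That limit does not cover these 4, with 435 (Nes), 299 (Msi1), 63 (Pax6) and 4505 (Notch3) summed control-labelled counts. Nes, the intermediate filament of neural progenitors, had 111, 132 and 94.5 CPM in K1, K2 and K3, against 3.08, 9.57 and 4.58 CPM in C1, C2 and C3 (log2 fold change 4.30 ± 0.42, SE; edgeR adjusted p = 8.68e-04). Pax6, a factor of eye and forebrain, rose by 3.87 on the log2 scale (edgeR adjusted p = 0.00581). The receptor Notch3 rose by 1.18 (edgeR adjusted p = 0.0114). Olig2, Hes5, Neurog1, Neurog2 and Fabp7, also of neural progenitors, were near 0, with no library of either group over 0.239 CPM. Of 12 genes of young neurons 6 were tested, 4 rose and 2 did not pass. Ina, a neuronal intermediate filament, had 18.5, 19.98 and 11 CPM in K1, K2 and K3, against 0.0750, 0.612 and 0.376 CPM in C1, C2 and C3 (edgeR adjusted p = 0.00159). Tubb3, the neuronal tubulin, rose by 5.26 on the log2 scale (edgeR adjusted p = 0.00580). Map2, a dendritic protein, rose by 1.38 (edgeR adjusted p = 0.0398). Ina, Tubb3 and Elavl2, which was also called, met the count filter only through the knockout-labelled libraries. Nothing is read from the share called. Dcx, Stmn2, Elavl3, Elavl4, Nefl and Syt1 were not tested, and Nefl had 0 counts in all 6 libraries. Summed counts in the knockout-labelled and control-labelled libraries were 15 and 22 for Dcx, 3 and 36 for Stmn2 and 10 and 20 for Syt1. They were 20 and 14 for Elavl3 and 5 and 5 for Elavl4. The summed level of the neural progenitor list was 251 to 289 CPM in the knockout-labelled and 51.9 to 77.7 CPM in the control-labelled libraries, and that of the young neuron list was 41.9 to 55.8 CPM in the knockout-labelled and 8 to 15.3 CPM in the control-labelled libraries. Their part in the levels of Sox1, Sox14 and Sox11 was not tested.

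Cartilage genes that Sox9 and Sox6 are known to activate rose in part, while Sox9 did not pass and Sox6 fell. Of 15 listed, 14 were in the files, 6 were tested, 3 rose and 3 did not pass. Among all tested genes 10.2% were called, 7.17% higher. Col2a1, the main cartilage collagen, had 26.1, 9.27 and 8.97 CPM in K1, K2 and K3, against 0.0750, 0.0437 and 0.0342 CPM in C1, C2 and C3 (log2 fold change 8.06 ± 0.73, SE; edgeR adjusted p = 6.98e-04). Acan, the cartilage proteoglycan, had 4.50, 12.5 and 4.74 CPM in K1, K2 and K3, against 0.150, 0 and 0.137 CPM in C1, C2 and C3 (edgeR adjusted p = 0.00430). Col9a3 rose by 2.94 on the log2 scale (edgeR adjusted p = 0.0124). Col2a1 and Acan, with 4 and 8 summed control-labelled counts, met the count filter only through the knockout-labelled libraries. For that reason nothing is read from the share called. Of the genes not tested, Hapln1 had 0 summed counts in the knockout-labelled and 41 in the control-labelled libraries. In the same order Comp had 12 and 34, and Matn3 1 and 2. Matn1 had 11 and 0, Col9a1 20 and 1, and Matn4 13 and 1, with most of the knockout-labelled counts of each in 1 library. Col9a2 had 27 and 22, with 27, 0 and 0 counts in K1, K2 and K3, and Chad had 17 and 14. Mean levels in the knockout-labelled and control-labelled libraries were 0.312 and 0.303 CPM for Col9a2 and 0.197 and 0.200 CPM for Chad. The list's summed level was 55.9 to 115 CPM in the knockout-labelled and 37.1 to 48.8 CPM in the control-labelled libraries. To that sum Wwp2, which was not called, gave 41.4, 25.8 and 24.0 CPM in K1, K2 and K3. It gave 37.3, 32.1 and 32.3 CPM in C1, C2 and C3, most of the control-labelled sum.

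Of 20 hair follicle genes tested, 1 rose, 1 fell and 18 did not pass, a share called near the 10.2% of all tested genes. Tbx1 rose (12.3, 7.98 and 10.5 CPM in K1, K2 and K3, against 2.33, 1.27 and 0.103 CPM in C1, C2 and C3; edgeR adjusted p = 0.0492). Lef1, the Wnt effector of hair buds, fell by 1.12 on the log2 scale (edgeR adjusted p = 0.0145). The summed level of the list was 4430, 4120 and 4420 CPM in K1, K2 and K3, against 6700, 5320 and 6500 CPM in C1, C2 and C3, a sum to which Krt15 gave 569, 1620 and 1920 CPM in K1, K2 and K3, against 2730, 2750 and 3120 CPM in C1, C2 and C3. The genes of the list went both ways, with a median log2 fold change of 0.08. Without overlap, 5 of 20 were higher and 4 of 20 lower, against 17.6% higher and 14.8% lower of all tested genes. The part of follicle cells in the Sox9 and Sox21 levels was not tested.

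Markers of other skin cell types gave these values beside the SOX genes, and their part in the SOX levels was not tested. The sort selected for EpCAM, and how far it removed fibroblasts, immune cells and melanocytes was not tested. Of 9 Merkel cell genes 4 were tested and 3 rose, against 10.2% called of all tested genes, and 5 had too few counts. Krt18, a simple-epithelial keratin, had 67.5, 25.4 and 19.8 CPM in K1, K2 and K3, against 1.39, 0.481 and 0.684 CPM in C1, C2 and C3 (edgeR adjusted p = 0.00156). Isl1, a LIM homeobox factor, had 256 summed knockout-labelled counts and no control-labelled ones, which, scaled for depth, is at least 85-fold higher if the control group is set to 3 counts (edgeR adjusted p = 0.00465). Isl1 met the count filter only through the knockout-labelled libraries, so nothing is read from its call or from the share called. The touch channel Piezo2 rose by 1.95 on the log2 scale (edgeR adjusted p = 0.00584). The Merkel list summed to 51.9 to 102 CPM in the knockout-labelled and 5.64 to 10.6 CPM in the control-labelled libraries. Atoh1, the defining Merkel factor, had at most 0.154 CPM in the knockout-labelled and 0.342 CPM in the control-labelled libraries. Of 15 genes of melanocytes and Schwann cells, the lineages of Sox10, 11 were tested and 0 were called; the highest, Erbb3, had 81.4, 102 and 110 CPM in K1, K2 and K3, against 83.1, 101 and 74.5 CPM in C1, C2 and C3 (edgeR adjusted p = 0.632). That list summed to 198 to 236 CPM in the knockout-labelled and 150 to 201 CPM in the control-labelled libraries. Of 8 fibroblast genes 7 were tested and 1 rose, Fbn1, a microfibril protein, by 2.08 on the log2 scale (edgeR adjusted p = 0.00738), with summed levels of 518 to 809 CPM in the knockout-labelled and 255 to 814 CPM in the control-labelled libraries. Of 7 immune genes 5 were tested and 0 were called, and the highest, Cd74, had 62.1, 25.8 and 129 CPM in K1, K2 and K3, against 64.7, 80.6 and 142 CPM in C1, C2 and C3 (edgeR adjusted p = 0.699). The immune list summed to 68.3 to 241 CPM in the knockout-labelled and 128 to 286 CPM in the control-labelled libraries.

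Of the 20 nearest protein-coding neighbours of the SOX genes 18 were in the files and 10 were tested: 0 rose, 2 fell and 8 did not pass in edgeR, with log2 fold changes of the 8 from -1.16 (Cmpk2, beside Sox11) to 0.64 (Slc39a11, beside Sox9). Over all tested genes 10.2% were called. Both neighbours that fell lay far from a SOX gene. Il20rb, an interleukin receptor chain 582 kb from Sox14, had 6.33, 15.7 and 20.9 CPM in K1, K2 and K3, against 43.1, 70.1 and 59.4 CPM in C1, C2 and C3 (edgeR adjusted p = 0.0172). Kcnj2, a potassium channel 1705 kb from Sox9, had 2.60, 0.618 and 5.04 CPM in K1, K2 and K3, against 15, 20.7 and 13 CPM in C1, C2 and C3 (edgeR adjusted p = 0.0359). Beside Sox1, Spaca7 had 0 counts in all 6 libraries. Beside Sox7, Pinx1, an inhibitor of telomerase 23.8 kb away, had 27.4, 19 and 22.3 CPM in K1, K2 and K3, against 17.6, 18.9 and 26.3 CPM in C1, C2 and C3 (edgeR adjusted p = 0.810). The gene on the other side of Sox7, 4930578I06Rik, was not tested and had 7, 14 and 22 counts in K1, K2 and K3, against 3, 2 and 0 counts in C1, C2 and C3, with no overlap. Beside Sox6, 1110004F10Rik, which starts 0.601 kb from it on the opposite strand, had 67.2, 80.0 and 76.9 CPM in K1, K2 and K3, against 54.8, 91.7 and 95.8 CPM in C1, C2 and C3 (edgeR adjusted p = 0.826).

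The genes whose levels followed those of 3 SOX genes most closely over the 6 libraries are given as a description. Likeness was the Pearson r of log2 CPM over 13878 named genes, and for Sox1 and Sox7 the 6 libraries form 2 clusters of 3. Among the nearest to Sox1 were Cacna1c, a calcium channel subunit (r = 0.9977), and Rgl3, a Ral exchange factor (r = 0.9975). Cacna1c had 38.6, 43.1 and 36.6 CPM in K1, K2 and K3, against 3.79, 2.54 and 2.94 CPM in C1, C2 and C3. Nearest to Sox7 were Rpp25 (0.9983), Gspt2 (0.9980) and Elfn1 (0.9977), a postsynaptic adhesion protein with 85.3, 48.2 and 60.6 CPM in K1, K2 and K3, against 0.113, 1.09 and 0.513 CPM in C1, C2 and C3. Nearest to Sox9 were Pom121, of the nuclear pore (0.9974), Tead1, the Hippo pathway factor (0.9973), and Thap4 (0.9961). Tead1 had 784, 236 and 240 CPM in K1, K2 and K3, against 593, 210 and 199 CPM in C1, C2 and C3, so it shared with Sox9 the high replicate 1 libraries of both groups.

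**Figure D5:**
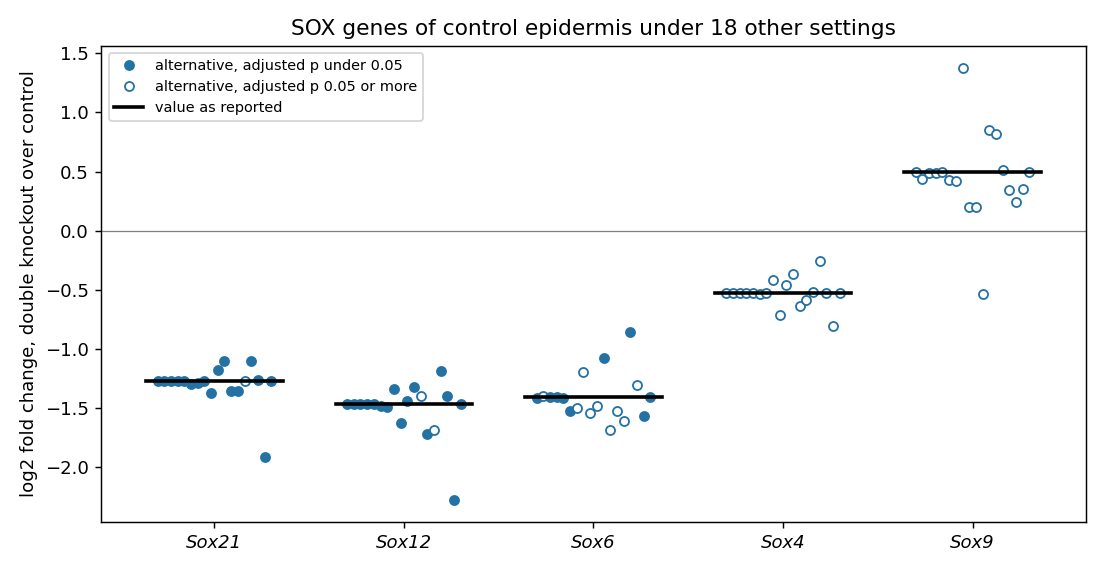
Log2 fold change (vertical axis, double knockout over control) of 5 SOX genes that control epidermis expresses (horizontal axis), as reported (black bars) and under 18 other settings of processing or libraries (points, filled where the adjusted p was under 0.05). Sox21, Sox12, Sox6 and Sox4 stay below 0 in all 18, Sox6 is filled in 9, and Sox9 lies on both sides of 0.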

How the data were processed

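Expression was measured by single-read RNA sequencing of amplified RNA from sorted cells, per the labels' protocols. The authors deposited whole-number counts per gene symbol, 1 file per library. Per the submitters' processing notes, the build was mm10 and the tools were DESeq2 1.6.3, HTSeq 0.6.1, Cufflinks 2.2.1 and TopHat2 2.0.13. The annotation and any use of strand are not given in the sources used here. Groups came from the sample titles. The 10 genes and all lists were chosen with earlier results of these data known. edgeR 4.0.16 (R 4.3.3) used TMM, filterByExpr (minimum count 10, total 15), a prior count of 0.125 and the quasi-likelihood F test (two-sided) on 3 against 3 libraries with Benjamini-Hochberg adjustment over all tested genes. Tests were checked on simulated counts. Alternatives included DESeq2 1.42.0 and limma 3.58.1. Named genes were the listed SOX genes, up to 3 called genes of each list with the smallest p (otherwise the highest), the nearest protein-coding neighbours, and for Sox1, Sox7 and Sox9 the 3 genes of most similar profile. Values of some genes that this rule or the lists hold are not reported here. Positions and exon lengths are from GENCODE M21 (GRCm38), promoters from RefSeq. No 2 libraries agreed within sampling noise (chi-square per degree of freedom of at least 28.6). Intervals of log2 fold changes are 95% intervals from the model's SE.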

Additional observations from a re-analysis of the deposited data

How the results depend on the processing

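The count of SOX members called higher was 4 under all 18 alternatives, and Sox1, Sox14, Sox11 and Sox7 were each called in all 18. Sox1 and Sox14, with 1 and 2 summed control-labelled counts, met the count filter only through the knockout-labelled libraries. Nothing is read from their calls under the alternatives for that reason. The count called lower was 1 to 3 when any 1 library was left out and 0 with replicates 1 and 2 alone; the cause was not tested, and fewer libraries were fitted. Replicate numbers do not pair the libraries by the labels: deviations from the group means correlated at 0.161, 0.202 and 0.071 for replicates 1, 2 and 3, each library correlating best with its own number, a hint from the data and not the design. With the replicate block 4 members were higher and 2 lower (Sox6 was at -1.50, edgeR adjusted p = 0.0668), and over all genes 1016 were higher and 435 lower. Over all genes, leaving out 1 library gave 630 to 957 higher and 174 to 436 lower calls, replicates 1 and 2 alone 354 and 85, replicates 2 and 3 alone 1633 and 1061, DESeq2 1639 and 896, and the Xist covariate 637 and 176. The offset for GC content and length (known for 97.8% of tested genes) moved the median log2 fold change by -0.15, called 887 genes higher and 1046 lower, 45.9% higher against 70.6% without it, and called 1 other SOX gene lower, Sox15 (-1, edgeR adjusted p = 0.0368). With it the 7 member calls held, at -1.92 for Sox21 and -2.28 for Sox12. Values of 5 genes without a call turned sign, while Sox4, Sox15 and Sox18 kept theirs. Leaving out 1 library gave -0.54 to 1.38 for Sox9, -0.54 to 1.58 for Sox5, -1.64 to 1.57 for Sox10, -0.77 to 1.72 for Sox13 and -1.82 to 0.14 for Sox17. Replicates 2 and 3 alone gave 1.38 for Sox5, -1.83 for Sox10, 1.19 for Sox13 and 0.34 for Sox17. Limma-voom gave 0.66 for Sox5 and 0.53 for Sox13, the replicate block 0.67 and 0.46, and the Xist covariate 0.08 and 0.11. The offset gave -0.17 for Sox10. All 40 mean CPM values of members under DESeq2 size factors or library size alone stayed within 1 SD.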

Other observations

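The share of each gene in the summed per-length level of the 10 SOX genes showed how the pool was made up in each library. Sox7 made up 16.1, 24.9 and 23.9% of the pool in K1, K2 and K3, against 1.72, 6.67 and 3.71% in C1, C2 and C3. Sox21 made up 5.03, 13.7 and 13.3% in K1, K2 and K3, against 17.7, 28.6 and 31.2% in C1, C2 and C3. Sox9 made up 64.5, 26.9 and 29.2% in K1, K2 and K3, against 47.3, 24.8 and 21.4% in C1, C2 and C3. Sox1, Sox14 and Sox11 made up 1.11 to 4.85% each in the knockout-labelled libraries. The whole pool was 172, 94.2 and 96.6 CPM per kb in K1, K2 and K3, against 157, 83.8 and 101 CPM per kb in C1, C2 and C3, so its size followed the replicate 1 libraries and not the labels.

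The raw counts of Sox4 (1259) and Sox21 (952) were the same whole numbers in K1 and K2, 2 libraries of different depth. Of 8117 genes with at least 200 counts in every library, 8 had equal counts in K1 and K2.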
